A study of Arabidopsis thaliana with 18 samples.

Results

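Cytochrome P450 genes were followed across whole Arabidopsis thaliana seedlings of 3 genotypes at 2 temperatures. A gene was included where a probe set of the array, a group of short probes for one transcript, named that gene alone and its symbol had the form CYP, family number, subfamily letter and gene number. The rule found 22 genes, each with 1 probe set, among 13350 genes named singly. Most known P450 genes outside CYP71B carry no such symbol in the annotation used. The 22 are thus only a part of the family, and the large share of CYP71B among them follows the naming. The groups were elf3-7 at 23 °C, elf3-7 at 16 °C, tfl1-1 at 23 °C, tfl1-1 at 16 °C, wild-type Columbia (WT) at 23 °C and WT at 16 °C, with 3 arrays each, lettered A, B and C. All seedlings were 10 days old and had grown on MS salts agar under continuous light after cold stratification of the seed. The study asked how TFL1, which holds back flowering, and ELF3, part of the evening complex of the clock, take part in the response to ambient temperature. The mutants elf3-7 and tfl1-1 are single alleles of these genes, and no probe set was named here as either gene, which leaves the genotypes unchecked on the arrays. The labels state independent RNA preparations for the replicates.

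Cytochrome P450 enzymes are haem-thiolate monooxygenases, most of them anchored in the endoplasmic reticulum, that take electrons from NADPH through a P450 reductase and put an oxygen atom into small molecules. Plant P450 genes are grouped into families and these into clans. The large CYP71 clan holds most enzymes of specialised metabolism, such as those of defence compounds, phenylpropanoids and glucosinolates, while the CYP51 clan is the ancient sterol demethylase lineage. The CYP71B subfamily expanded in Arabidopsis by local duplication, and its best known enzyme, CYP71B15 (PAD3) of camalexin synthesis, is not among the genes that met the naming rule.

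Of the 22 genes, 21 belong to the CYP71 clan and 1, CYP51G2, to the CYP51 clan, so a comparison of clans was not possible. The CYP71 clan members are 18 CYP71B genes together with CYP78A9, CYP79A2 and CYP84A4, and the other 7 clans of land plants are not described here. RefSeq (TAIR10.1) lists 20 members as protein-coding and CYP71B27 and CYP51G2 as transcribed pseudogenes. On chromosome 3, 11 CYP71B members lie in one run of locus codes, AT3G26150 to AT3G26330, in the order CYP71B16, CYP71B21, CYP71B22, CYP71B23, CYP71B24, CYP71B25, CYP71B26, CYP71B34, CYP71B35, CYP71B36 and CYP71B37. Between neighbouring members of this run RefSeq places at most 4 other protein-coding genes, and from CYP71B26 to CYP71B37 none. Other gene types were not counted, here or for the neighbours named below. Elsewhere CYP71B28 (AT1G13090) and CYP71B29 (AT1G13100) are neighbours on chromosome 1, and CYP71B5 (AT3G53280) lies near CYP71B31 (AT3G53300) on chromosome 3. Probes of closely similar neighbours may pick up each other's transcripts, which was not tested.

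Values are the log2 expression values that the authors made with RMA, a method that corrects the background, scales the arrays to one another and summarises the probes of a set. Array medians lay between 5.49 and 5.62, and arrays of one group correlated at 0.954 to 0.995 over all probe sets. The 6 replicate C arrays stood apart from the other 12. Their Bacillus control probe sets averaged 5.70 ± 0.73 on the log2 scale (SD, n = 6), against 3.21 ± 0.04 (SD, n = 12) on the A and B arrays. Their actin and GAPDH control probes were 3.17 ± 0.32 higher at the 3′ end than at the 5′ end, against 2.11 ± 0.17 on the A and B arrays, also on the log2 scale. The letter C marks 1 array in each group, so differences are given below also over A and B and for C alone where they matter.

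The probe sets of the members differed in brightness. Over the 18 arrays 14 members had a mean above the 25th percentile of all probe sets (log2 3.637), between 4.02 and 8.43. The other 8, namely CYP71B38, CYP79A2, CYP51G2, CYP71B25, CYP71B21, CYP71B27, CYP71B31 and CYP71B16, had means of 2.83 to 3.54 and single values of 2.72 to 3.70. Differences in such dim probe sets tend to be understated, and brightness depends on the probes as well as the transcript, so it does not rank the genes by transcript level. CYP71B6 (AT2G24180), which takes part in the metabolism of indole-3-acetonitrile, had the brightest probe set of the members, with a mean of 8.43, and stayed between 7.88 and 8.94. CYP71B16 (AT3G26150) had the dimmest, with a mean of 2.83 and a range of 2.72 to 3.06, and CYP51G2 (AT2G17330) averaged 3.31 with a range of 3.14 to 3.54. The standard deviation over the 18 arrays was largest for CYP71B26 (0.94), followed by CYP71B24 (0.88), CYP71B5 (0.70) and CYP71B23 (0.64). It was 0.09 for CYP71B16 and for CYP71B31.

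A group of CYP71B genes was higher after growth at 23 °C, and no member was lower past the test. Averaged over the genotypes, 7 of 22 members (31.8%) were called higher at 23 °C than at 16 °C and none was called lower, with limma's moderated test over all 22746 probe sets and Benjamini-Hochberg adjusted p under 0.05. Over all probe sets 15.3% were called higher and 15.6% lower in the same comparison. The 7 were CYP71B26, CYP71B24, CYP71B5, CYP71B28, CYP71B23, CYP71B35 and CYP71B22, with log2 differences of 1.36 ± 0.12, 1.29 ± 0.19, 1.11 ± 0.18, 0.67 ± 0.11, 0.61 ± 0.21, 0.48 ± 0.12 and 0.21 ± 0.07 in that order (SE). The median log2 difference of the 22 members was 0.10, against 0.04 over all probe sets, and members ran from -0.35 to 1.36 with 18 above 0, against 59.2% above 0 over all probe sets. Since 30.9% of all probe sets were called in one or the other direction, the number of members called was near that share, and the direction is described only for these genes.

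Within single genotypes fewer members passed. In elf3-7 CYP71B26 alone was called higher, where 2.55% of all probe sets were called higher and 2.32% lower. The replicate letters paired the elf3-7 arrays, and with them as a block CYP71B28, CYP71B35 and CYP71B5 were called higher there too, against 7.08% higher and 5.75% lower over all probe sets. In tfl1-1 CYP71B24, CYP71B26 and CYP71B28 were called higher, against 3.98% higher and 5.18% lower over all probe sets. In WT CYP71B5, CYP71B28 and CYP71B25 were called higher, against 2.83% higher and 3.98% lower over all probe sets. The letters paired the WT arrays too. With the replicate block CYP71B24 was also called higher there, against 6.76% higher and 7.12% lower over all probe sets. At an unadjusted p under 0.05, 4 members passed in elf3-7, 6 in tfl1-1 and 6 in WT, near the shares over all probe sets of 22%, 25.2% and 22.6% in that order. The median log2 difference of the members was 0.05 in elf3-7, 0.16 in tfl1-1 and 0.14 in WT. The 3 arrays at 23 °C all lay above the 3 at 16 °C for 5 members in elf3-7, 6 in tfl1-1 and 6 in WT, where 14%, 15% and 13.7% of all probe sets did so, in that order. The 3 arrays at 23 °C all lay below those at 16 °C for 1 member, CYP71B25 in tfl1-1 (3.20, 3.22 and 3.20 at 23 °C, against 3.29, 3.25 and 3.24 at 16 °C), and for no member in elf3-7 or WT. Over all probe sets 13.4% did so in tfl1-1, 12.5% in elf3-7 and 12.5% in WT. CYP71B5, CYP71B24, CYP71B26 and CYP71B28 were higher without overlap in every genotype. The share of all probe sets that did so in every genotype was not computed.

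**Figure D1:**
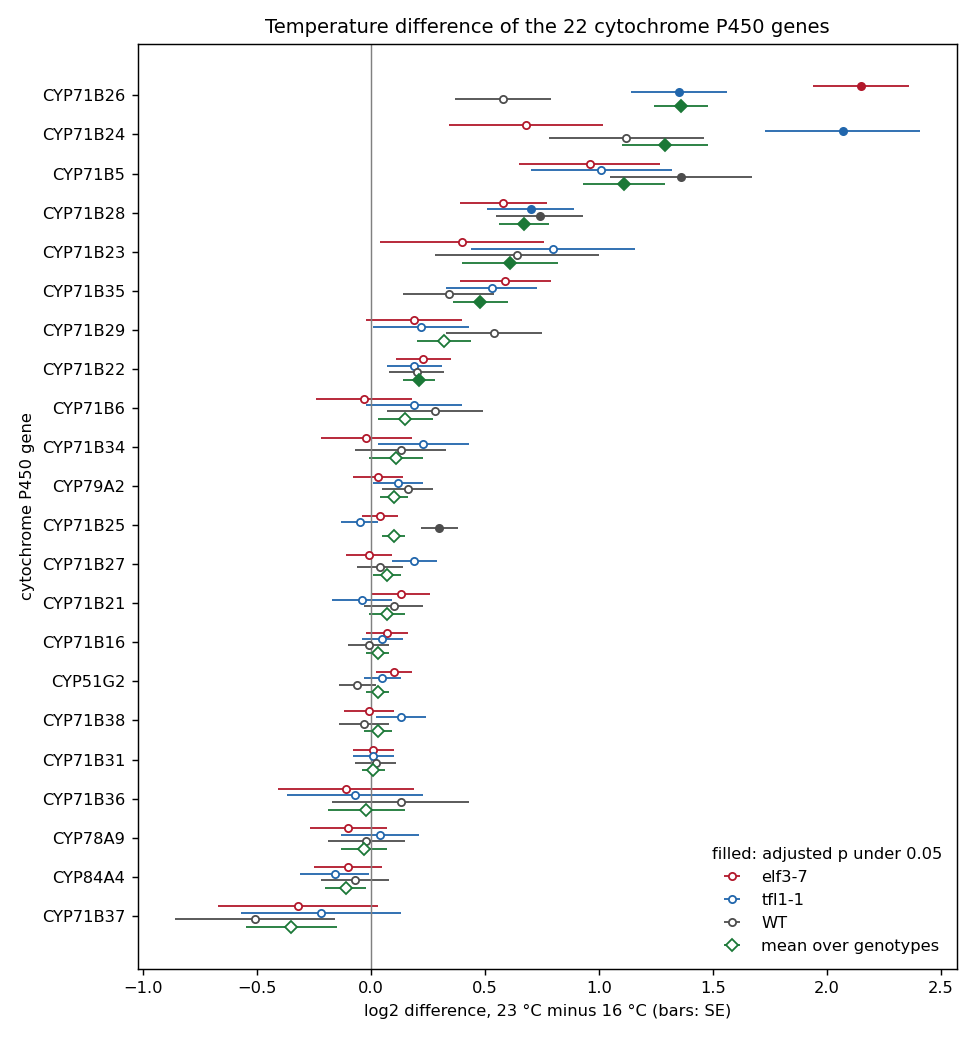
Log2 difference (23 °C minus 16 °C) of each of the 22 genes, with SE, in elf3-7 (red), tfl1-1 (blue), WT (grey) and averaged over the genotypes (green diamonds), and filled symbols for adjusted p under 0.05. CYP71B26 at 2.15 in elf3-7 and CYP71B24 at 2.07 in tfl1-1 lie farthest to the right, and the lower genes cluster around 0.

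CYP71B26 (AT3G26290), in the run on chromosome 3, had the largest log2 difference between temperatures in elf3-7 and averaged over genotypes, and was the member called between genotypes. In elf3-7 its log2 values were 8.38, 7.75 and 8.40 at 23 °C, against 6.19, 5.70 and 6.18 at 16 °C. In tfl1-1 they were 8.67, 8.92 and 9.23 at 23 °C, against 7.65, 7.59 and 7.52 at 16 °C. In WT they were 7.68, 8.18 and 7.83 at 23 °C, against 7.05, 7.28 and 7.63 at 16 °C. The elf3-7 arrays at 16 °C were the lowest of the 6 groups and the tfl1-1 arrays at 23 °C the highest, and neither group overlapped any other. The gene was higher at 23 °C by 2.15 ± 0.21 in elf3-7 on the log2 scale, which is 4.44-fold, with an adjusted p of 0.000131 in limma. In tfl1-1 it was higher by 1.35 ± 0.21 (SE), or 2.55-fold, with an adjusted p of 0.00282. In WT the difference was 0.58 ± 0.21 and did not pass (adjusted p = 0.118), although the WT arrays did not overlap between temperatures. The elf3-7 difference was 2.12 over replicates A and B and 2.22 in replicate C, and that of tfl1-1 was 1.17 over A and B and 1.71 in C. In WT it was 0.76 over A and B and 0.20 in C. The calls in elf3-7 and tfl1-1 held when any 1 array was left out.

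**Figure D2:**
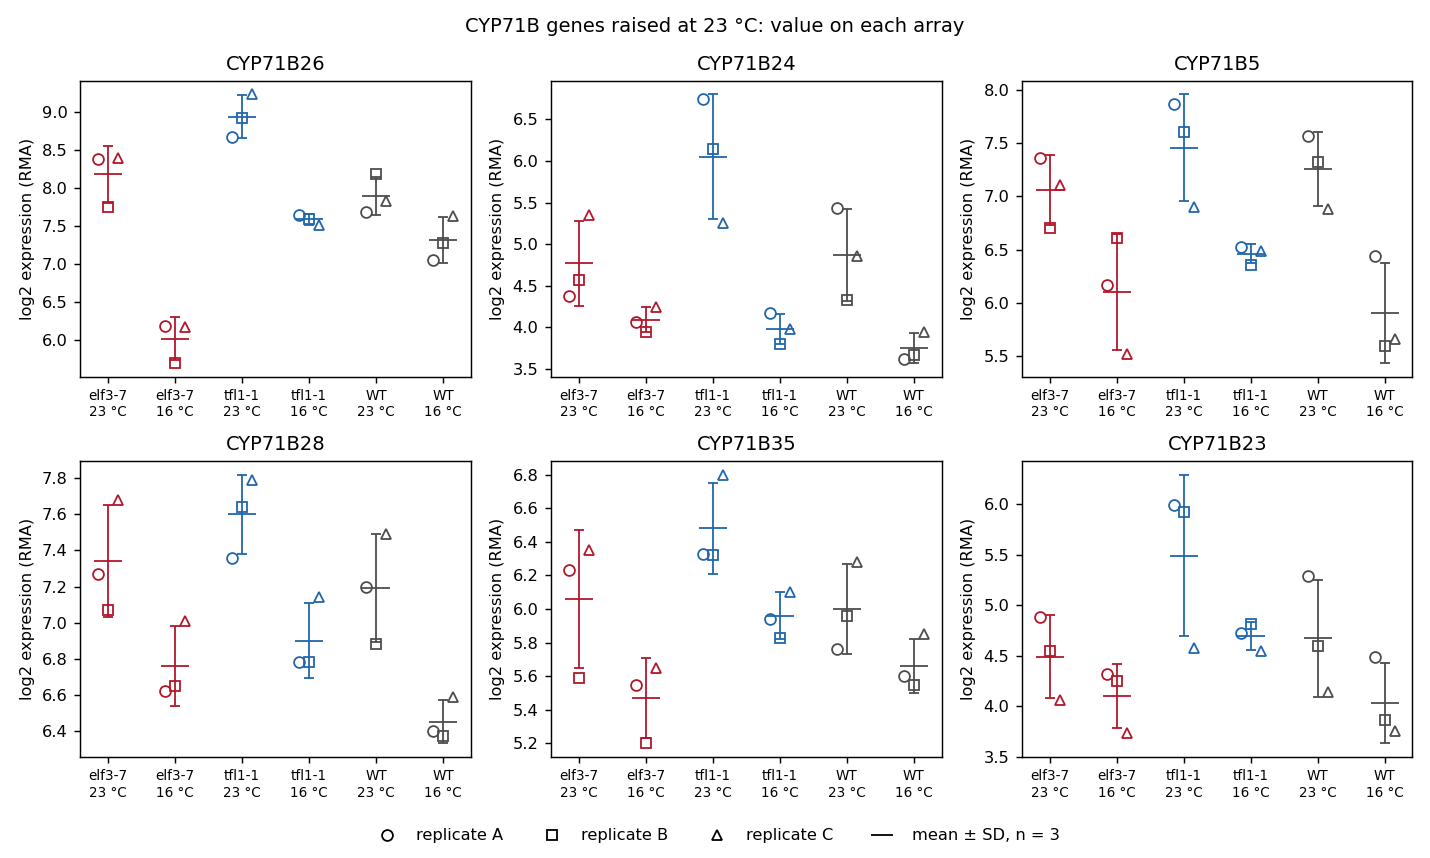
Log2 expression (RMA) of 6 CYP71B genes on each of the 18 arrays, with replicate A as circles, B as squares and C as triangles, and the mean ± SD of 3 arrays as bars. The groups run from elf3-7 at 23 °C to WT at 16 °C, and the elf3-7 arrays at 16 °C are the lowest for CYP71B26, between 5.70 and 6.19.

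CYP71B24 (AT3G26230), earlier in the order of the same run, was low at 16 °C in every genotype and highest in tfl1-1 at 23 °C. Its log2 values in tfl1-1 were 6.75, 6.14 and 5.26 at 23 °C, against 4.17, 3.80 and 3.98 at 16 °C. In elf3-7 they were 4.38, 4.57 and 5.35 at 23 °C, against 4.07, 3.95 and 4.25 at 16 °C, and in WT 5.43, 4.33 and 4.86 at 23 °C, against 3.62, 3.67 and 3.95 at 16 °C. The arrays of the temperatures did not overlap in any genotype, but the tfl1-1 arrays at 23 °C were spread widely, with A highest and C lowest. The gene rose by 2.07 ± 0.34 (SE) in tfl1-1, or 4.19-fold, with an adjusted p of 0.00341, and this call held when any 1 array was left out. The difference there was 2.46 over replicates A and B and 1.28 in replicate C. In elf3-7 the difference was 0.68 ± 0.34 (adjusted p = 0.26). In WT it was 1.12 ± 0.34 with an adjusted p of 0.06, and of 0.0394 with the replicate letter as a block in the fit.

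CYP71B5 (AT3G53280), outside the run, was higher at 23 °C averaged over genotypes and in WT. In elf3-7 its log2 values were 7.36, 6.70 and 7.11 at 23 °C, against 6.17, 6.61 and 5.52 at 16 °C. In tfl1-1 they were 7.87, 7.61 and 6.90 at 23 °C, against 6.52, 6.35 and 6.49 at 16 °C, and in WT 7.57, 7.32 and 6.88 at 23 °C, against 6.44, 5.59 and 5.66 at 16 °C. The temperatures did not overlap in any genotype, and in elf3-7 the arrays of replicate B were close to each other (6.70 and 6.61). On the log2 scale the difference averaged over genotypes, 1.11 ± 0.18 (SE), had an adjusted p of 0.000414 and was positive in 9 of 9 pairs of arrays with the same letter and genotype. In WT, the genotype in which it was called, the adjusted p in limma was 0.0201, and 0.00501 with a replicate block. In the fit with no block, that call was lost without WT 16 °C replicate B (adjusted p = 0.0937), WT 16 °C replicate C (0.0836), WT 23 °C replicate A (0.0895) or WT 23 °C replicate B (0.0592). In elf3-7 the difference was 0.96 ± 0.31 with an adjusted p of 0.0847 (0.0228 with a replicate block). It was 0.64 over replicates A and B and 1.59 in replicate C. In tfl1-1 it was 1.01 ± 0.31 with an adjusted p of 0.0549, and of 0.0173 with replicate C as a batch term, and it was 1.31 over A and B and 0.41 in C.

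CYP71B28 (AT1G13090) was called higher at 23 °C in tfl1-1, in WT and averaged over genotypes. In elf3-7 its log2 values were 7.27, 7.07 and 7.68 at 23 °C, against 6.62, 6.65 and 7.01 at 16 °C. In tfl1-1 they were 7.36, 7.64 and 7.79 at 23 °C, against 6.78, 6.78 and 7.14 at 16 °C, and in WT 7.20, 6.88 and 7.49 at 23 °C, against 6.40, 6.37 and 6.59 at 16 °C. In each genotype replicate C was the highest array at each temperature, and the temperatures did not overlap. The log2 difference was 0.58 ± 0.19 in elf3-7, 0.70 ± 0.19 in tfl1-1 and 0.74 ± 0.19 in WT (SE). The adjusted p in limma was 0.0818 in elf3-7 (0.00636 with a replicate block), 0.031 in tfl1-1 and 0.0308 in WT (0.00239 with a replicate block). In the fit with no block, the WT call was lost without WT 16 °C replicate A (adjusted p = 0.068), B (0.115) or C (0.0686), or without WT 23 °C replicate A (0.096) or C (0.0856). The tfl1-1 call was lost without tfl1-1 16 °C replicate A (0.124) or B (0.107), or without tfl1-1 23 °C replicate A (0.0511), B (0.0972) or C (0.055). Averaged over genotypes, the call (adjusted p = 0.000387) held when any 1 array was left out. Its neighbour CYP71B29 (AT1G13100) had a log2 difference of 0.32 ± 0.12 averaged over genotypes and did not pass in limma (adjusted p = 0.0624), nor over replicates A and B alone. It passed with a replicate block, with array weights and with replicate C as a batch term (0.0401).

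Along the run on chromosome 3, members next to each other differed in their response. Averaged over genotypes, 5 of the 11 members in the run were called higher at 23 °C, as were 2 of the 7 other CYP71B genes and 0 of the 4 members of other families. In the same comparison 15.3% of all probe sets were called higher. The median log2 difference in the run was 0.11, because 6 members lay between -0.35 and 0.11. CYP71B26 lies beside CYP71B34 (AT3G26300), which had a log2 difference of only 0.11 ± 0.12 and values of 6.16 to 7.13 over the 18 arrays. CYP71B35 (AT3G26310), the next gene, was called higher by 0.48 ± 0.12 (adjusted p = 0.00595). Its log2 values were 6.23, 5.59 and 6.35 in elf3-7 at 23 °C, against 5.55, 5.20 and 5.65 at 16 °C. In tfl1-1 they were 6.33, 6.32 and 6.80 at 23 °C, against 5.94, 5.83 and 6.10 at 16 °C, and in WT 5.76, 5.96 and 6.28 at 23 °C, against 5.60, 5.55 and 5.85 at 16 °C. The groups of tfl1-1 did not overlap, while those of elf3-7 and WT did. In elf3-7 its difference of 0.59 ± 0.20 had an adjusted p of 0.103, and of 0.0137 with a replicate block. CYP71B36 (AT3G26320) had a log2 difference of -0.02 ± 0.17.

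**Figure D3:**
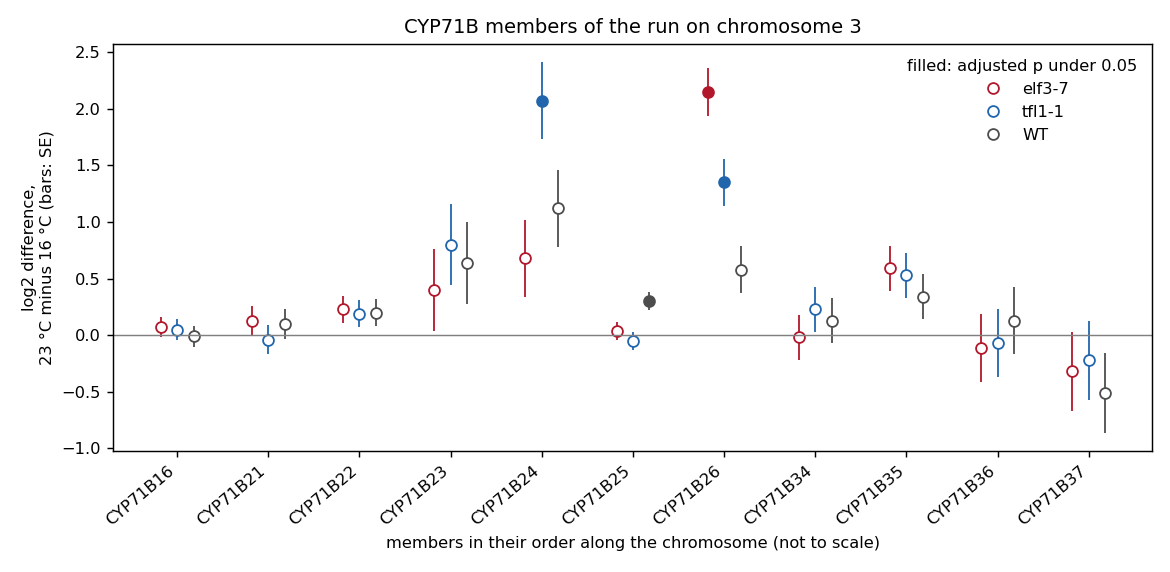
Log2 difference (23 °C minus 16 °C, with SE) of the 11 CYP71B members of the run on chromosome 3, in gene order from CYP71B16 to CYP71B37, for elf3-7 (red), tfl1-1 (blue) and WT (grey). The highest points are those of CYP71B26 in elf3-7 and CYP71B24 in tfl1-1, CYP71B34 beside CYP71B26 lies near 0, and CYP71B37 lies below 0 in each genotype, at -0.32, -0.22 and -0.51 in that order of genotypes.

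CYP71B23 (AT3G26210) and CYP71B22 (AT3G26200), at the other side of CYP71B24, had calls close to the threshold. CYP71B23 read 4.88, 4.54 and 4.06 in elf3-7 at 23 °C, against 4.32, 4.25 and 3.73 at 16 °C, as log2 values. In tfl1-1 the values were 5.99, 5.92 and 4.57 at 23 °C, against 4.72, 4.81 and 4.54 at 16 °C, and in WT 5.29, 4.59 and 4.14 at 23 °C, against 4.49, 3.86 and 3.75 at 16 °C. Replicate C was the lowest array of all 6 groups for this gene, and in tfl1-1 the difference was 1.19 over replicates A and B but 0.03 in replicate C. The difference averaged over genotypes was 0.61 and positive in 9 of 9 pairs, with an adjusted p of 0.0383, and of 0.00214 with replicate C as a batch term. The adjusted p rose above 0.05, to between 0.0519 and 0.0791, when any of 12 of the 18 arrays was left out, while the difference stayed between 0.51 and 0.77. CYP71B22 moved by little, with a range of 3.83 to 4.37 over all arrays and a log2 difference of 0.21 ± 0.07 (adjusted p = 0.0361). Leaving out any of 12 of the 18 arrays gave an adjusted p of 0.0513 to 0.0733 for it. CYP71B25 (AT3G26270) was called in WT, with log2 values of 3.50, 3.36 and 3.39 at 23 °C, against 3.20, 3.00 and 3.16 at 16 °C. The probe set is among the 8 dim ones, and its difference of 0.30 ± 0.08 had an adjusted p in limma of 0.043, and of 0.0333 with a replicate block. In the fit with no block, the call was lost without WT 16 °C replicate B (0.184) or C (0.0988), or without WT 23 °C replicate A (0.161), B (0.0711) or C (0.0653). In elf3-7 and tfl1-1 its differences were 0.04 and -0.05.

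CYP71B37 (AT3G26330), the last gene of the run, had the lowest log2 difference averaged over genotypes, -0.35 ± 0.20, which did not pass (adjusted p = 0.216). Its log2 values in tfl1-1 were 4.10, 4.59 and 6.16 at 23 °C, against 5.23, 5.12 and 5.16 at 16 °C. Replicate C at 23 °C stood far above the A and B arrays of that group, and it was the highest of all 18 arrays. Over replicates A and B alone the gene was called lower at 23 °C, by -0.83 in tfl1-1 (adjusted p = 0.0318) and by -0.52 averaged over genotypes (adjusted p = 0.0138). In that setting 11.7% of all probe sets were called lower and 10.2% higher in tfl1-1, and 17.1% and 18.8% averaged over genotypes. In replicate C the tfl1-1 difference was 0.99.

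The members outside CYP71B gave no call in any of the 10 comparisons. CYP84A4 (AT5G04330), which takes part in arabidopyrone synthesis, had a log2 difference of -0.11 averaged over genotypes. That of CYP78A9 (AT3G61880), known for its effect on fruit and seed growth, was -0.03. The dim genes CYP79A2 (AT5G05260), which makes phenylacetaldoxime from phenylalanine for benzylglucosinolate, and CYP51G2 had differences of 0.10 and 0.03. CYP71B6 had 0.15 ± 0.12, with an interval of -0.11 to 0.41. CYP71B31, an enzyme of linalool oxidation in flowers, had 0.01 at a mean level of 2.88. Over all comparisons 8 members were called at least once and 14 never, while 31.6% of all probe sets were called at least once.

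Between genotypes, CYP71B26 was lower in elf3-7 than in WT at 16 °C, and no other member was called in any of the 4 comparisons with WT in the main analysis. At 16 °C elf3-7 averaged 6.02 ± 0.28, against 7.32 ± 0.30 in WT (log2 values, SD, n = 3 each). This is a log2 difference of -1.30 ± 0.21, or 2.46-fold lower, with an adjusted p of 0.0165 in limma, where only 0.154% of all probe sets were called higher and 0.114% lower. It was -1.22 over replicates A and B and -1.46 in replicate C. The call was lost without WT 16 °C replicate B (0.0663), WT 16 °C replicate C (0.108) or elf3-7 16 °C replicate B (0.118), and over replicates A and B alone (0.109). At 23 °C the elf3-7 and WT arrays overlapped and the log2 difference was 0.28 ± 0.21, with an interval of -0.17 to 0.73. CYP71B5 had log2 differences between elf3-7 and WT of -0.20 ± 0.31 at 23 °C and 0.20 ± 0.31 at 16 °C. At an unadjusted p under 0.05, 2 members passed in elf3-7 minus WT at 16 °C and 1 at 23 °C, against 6.8% and 5.17% of all probe sets. At adjusted p under 0.05 no member was called at 23 °C, where 0.0044% of all probe sets were called higher and 0.0264% lower. The replicate letters paired these arrays at 23 °C. With the replicate block no member was called there either, against 0.00879% higher and 0.0352% lower over all probe sets.

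In tfl1-1 no member passed against WT in the main analysis. The replicate letters paired the tfl1-1 and WT arrays at 23 °C. With the replicate block no member was called there either, against 0.0572% higher and 0.0703% lower over all probe sets. With array weights CYP71B23, CYP71B24 and CYP71B26 were called higher in tfl1-1 than in WT at 23 °C, against 3.43% higher and 3.57% lower over all probe sets. At 23 °C CYP71B26 averaged 8.94 ± 0.28 in tfl1-1, against 7.90 ± 0.25 in WT (log2 values, SD, n = 3 each), and the arrays did not overlap. The log2 difference was 1.04 ± 0.21, with an adjusted p of 0.139. CYP71B24 averaged 6.05 ± 0.75 in tfl1-1, against 4.87 ± 0.55 in WT at 23 °C, a log2 difference of 1.18 ± 0.34 (SE) that did not pass in limma (adjusted p = 0.361). Only 0.022% of all probe sets were called higher and 0.0132% lower at 23 °C, and at 16 °C 0% were called in either direction. At an unadjusted p under 0.05, 6 members passed at 23 °C and 3 at 16 °C, against 8.46% and 7.55% of all probe sets. CYP71B5 had log2 differences between tfl1-1 and WT of 0.21 ± 0.31 at 23 °C and 0.56 ± 0.31 at 16 °C, and CYP71B26 one of 0.26 ± 0.21 at 16 °C.

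**Figure D4:**
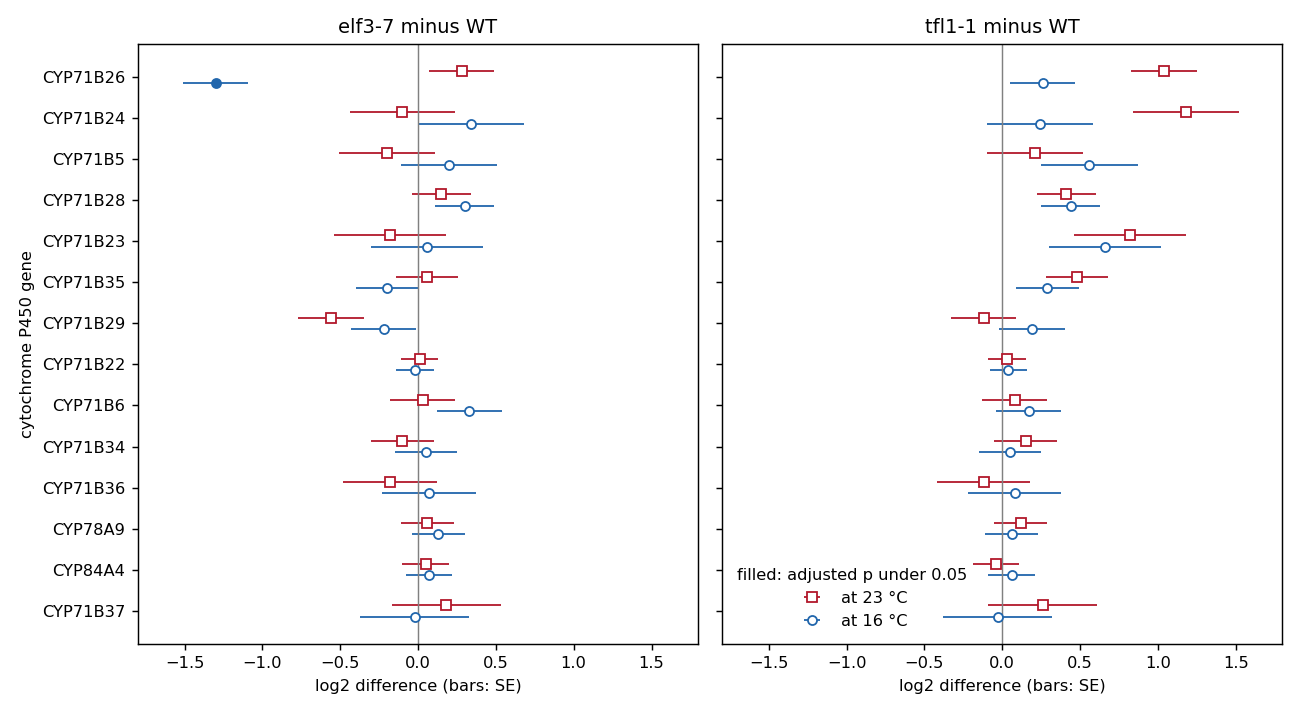
Log2 difference of each mutant minus WT (with SE) for the 14 members above the 25th percentile of probe set means, at 23 °C (red squares) and 16 °C (blue circles), and filled symbols for adjusted p under 0.05. CYP71B26 in elf3-7 at 16 °C, at -1.30, is the filled point, and most other members lie near 0.

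Whether a mutant changed the response to temperature was tested as the difference between its 23 °C minus 16 °C difference and that of WT. Of all 22746 probe sets 0% were called in either mutant, so no member could be told apart from WT in its response after adjustment. The response of CYP71B26 was greater by 1.58 ± 0.30 on the log2 scale in elf3-7 than in WT, with an interval of 0.94 to 2.21. Its unadjusted p in limma was 9.95e-05 and its adjusted p 0.73. The difference was 1.35 over replicates A and B and 2.02 in replicate C. In tfl1-1 its response was greater by 0.78 ± 0.30 (adjusted p = 1), at 0.41 over A and B and 1.51 in C. For CYP71B5 the response differed from that of WT by -0.40 in elf3-7, with an interval of -1.33 to 0.54, and by -0.35 in tfl1-1, with an interval of -1.28 to 0.58. For CYP71B24 it differed by 0.94 ± 0.48 in tfl1-1. At an unadjusted p under 0.05, 2 members passed in each mutant, against 2.38% of all probe sets in elf3-7 and 3.61% in tfl1-1. The comparisons of both mutants share the WT arrays.

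Genes of pathways in which P450 enzymes act, and markers of tissues, were looked up in 16 lists with 145 genes. Of these 16 genes were measured under a single gene name, 3 of them P450 members, and 7 lists had none. Of the 9 pathway genes that were neither members nor markers, DFR, the dihydroflavonol reductase of anthocyanin synthesis, was called lower at 23 °C averaged over genotypes (log2 difference -2.56 ± 0.40, adjusted p = 0.000335), and the other 8 were not called in that comparison. In that comparison 30.9% of all probe sets were called in one or the other direction. UGT74B1 and BCAT4 of glucosinolate synthesis had log2 differences of 0.41 and -0.47 there, and HCT of phenylpropanoid synthesis had 0.26. LCYB of carotenoid synthesis had 0.19 and JMT of jasmonate metabolism 0.41. The gibberellin receptors GID1A, GID1B and GID1C had 0.32, -0.11 and 0.21.

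All 3 root markers measured, PYK10, EXPA7 and EXPA18, were lower at 23 °C averaged over genotypes, with log2 differences of -0.41, -0.96 and -1.48. All 3 were called in that average, but none was called within a single genotype. Over all probe sets 15.3% were called higher and 15.6% lower in that average. The markers were chosen with earlier results of these data known, so their shared direction is not independent evidence on tissue. The call of EXPA18 held without any 1 array, that of EXPA7 when each of 14 of the 18 arrays was left out in turn, and that of PYK10 for 5 of them. Their mean log2 value was 6.85 in elf3-7 at 23 °C, against 7.66 at 16 °C, and 6.31 in tfl1-1 at 23 °C, against 7.37 at 16 °C. In WT it was 6.26 at 23 °C, against 7.25 at 16 °C. The single arrays' means ran from 6.11 to 7.48 at 23 °C, against 6.72 to 8.54 at 16 °C. Of 5 green tissue markers LHCB4.2 was measured and had a log2 difference of -0.13 (adjusted p = 0.188). Whole seedlings were sampled, so fewer cells of a type and less RNA per cell cannot be told apart. The part that tissue composition, or stage of development at the shared age of 10 days, has in the P450 differences was not tested.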

How the data were processed

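Whole seedlings in 6 groups of 3 arrays were compared. The deposited log2 expression values, 1 per probe set and array, come from RMA according to the submitters' processing notes; its version is not given in the sources used here. No further scaling was applied in the main analysis. Array number limits the precision. The 64 control probe sets were left out, and 22746 probe sets entered a limma fit (limma 3.58.1, R 4.3.3) of 6 group means over 18 arrays with empirical Bayes moderation and two-sided tests. P-values were adjusted by Benjamini-Hochberg within each of 10 comparisons, and calls were made at adjusted p under 0.05. The comparison averaged over genotypes uses the same arrays as the single genotypes. SE is that of the fit, and intervals are 95%. The script was tested on simulated data for WT at 23 °C minus 16 °C. It called 74 of 100 probe sets changed by a log2 size of 1, 94 of 100 changed by 2, and 14 unchanged ones. The simulated noise was independent between arrays, with no replicate C batch and no pairing. Tables and plots used Python 3.11.15, pandas 2.3.3, numpy 2.4.6 and matplotlib 3.10.9.

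Gene names came from the annotation of the platform, and the RefSeq gene table of TAIR10.1 gave locus codes, gene order and gene type. No sequence was used here. The members and lists were chosen with earlier results of these data known. The text names called members, CYP71B5 and CYP71B26 in every comparison, the brightest and dimmest member of each clan, list members, and called list genes or up to 2 values per list. The other gibberellin receptor and genes named for their place in the run or spread were added after their values were seen.

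Replicate letters paired the arrays (all 3 correlations of deviations above 0.1) in 4 of 7 pairwise comparisons, with 0.187 to 0.622: temperature in WT and elf3-7, and each mutant against WT at 23 °C. The pairing comes from the data, since the labels do not state what a letter shares. Alternatives were other scalings, a dim probe set filter, array weights, a replicate block, replicates A and B only, each array left out and, chosen after seeing the data, replicate C as a batch term.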

Additional observations from a re-analysis of the deposited data

Results flagged for a closer look

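2 probe sets of P450 genes that the naming rule left out also carried signal above the 25th percentile of probe set means and passed the test. The first names CYP71B20 and CYP71B19 together, so its signal cannot be assigned to either gene, and averaged 7.63 on the log2 scale over the 18 arrays. Its values were 8.03, 7.83 and 8.25 in elf3-7 at 23 °C, against 7.26, 7.09 and 7.37 at 16 °C. In tfl1-1 they were 8.46, 8.55 and 7.84 at 23 °C, against 7.28, 7.26 and 7.72 at 16 °C, and in WT 7.90, 7.55 and 8.23 at 23 °C, against 6.93, 6.70 and 7.03 at 16 °C. It was called higher at 23 °C in elf3-7 (log2 difference 0.80, adjusted p = 0.0403), tfl1-1 (0.86, 0.0205) and WT (1.00, 0.0129), with limma over all probe sets. In tfl1-1 the difference was 1.23 over replicates A and B and 0.11 in replicate C. Each of these 3 calls was lost without some single arrays of its own comparison, while the call averaged over genotypes (0.89 ± 0.12, adjusted p = 0.000127) held without any 1 array.

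The second is CYP718, whose symbol has no subfamily letter, with a mean of 3.89 over the 18 arrays. It averaged 3.53 ± 0.19 in tfl1-1 at 23 °C, against 4.35 ± 0.14 at 16 °C (log2 values, SD, n = 3 each), with no overlap. It was called lower at 23 °C in tfl1-1 (log2 difference -0.82 ± 0.21, adjusted p = 0.0262) and averaged over genotypes (-0.44 ± 0.12, adjusted p = 0.0117). The tfl1-1 call was lost without 5 of its 6 arrays in turn, with an adjusted p of at most 0.0919.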

How the results depend on the processing

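The number of members called moved by more than 1.5 times in 5 of the 10 comparisons. With the replicate block 4 members were called for temperature in elf3-7 and 6 in tfl1-1, against 1 and 3 without it, 4 against 3 in WT and 8 against 7 averaged over genotypes, and replicate C as a batch term (chosen after seeing the data) also gave 4 and 6. Over all probe sets the block called 12.8% in elf3-7 and 17.6% in tfl1-1, against 4.87% and 9.16% without it. It called 13.9% in WT and 39.3% averaged over genotypes, against 6.81% and 30.9% without it. The batch term called 13% in elf3-7 and 17.7% in tfl1-1. Array weights gave 4 in elf3-7, 8 in tfl1-1 (7 higher, 1 lower), 6 in WT against 3, and 3 for tfl1-1 minus WT at 23 °C against 0, and called 19.4%, 31.2%, 15.6% and 7% of all probe sets in these comparisons in that order. Replicates A and B alone gave 6 in tfl1-1 (5 higher, 1 lower) and 0 for elf3-7 minus WT at 16 °C, against 1. They called 21.8% of all probe sets in tfl1-1 and 0.22% in elf3-7 minus WT at 16 °C. The replicate letters did not pair the tfl1-1 arrays between temperatures (correlation -0.102 for A), nor elf3-7 and WT (-0.198 for B) or tfl1-1 and WT (-0.091 for A) at 16 °C. Leaving out 1 array at a time gave 1 to 3 calls in elf3-7, 2 to 5 in tfl1-1, 0 to 3 in WT, 5 to 9 averaged over genotypes, 0 to 1 for elf3-7 minus WT at 16 °C and 0 to 3 for tfl1-1 minus WT at 23 °C, and 0 in the other 4. The 0 in WT came without WT 16 °C replicate B or C or WT 23 °C replicate A, and the 3 in tfl1-1 minus WT without tfl1-1 23 °C replicate C. Shares over all probe sets are not given for the fits with 1 array left out. Equal array medians, quantile normalization and the filter on dim probe sets kept every count within 1.5 times. Of the 15 calls of single members, 8 held under every alternative: CYP71B26 in elf3-7, in tfl1-1 and averaged over genotypes, CYP71B24 in tfl1-1 and averaged, and CYP71B5, CYP71B28 and CYP71B35 averaged. Of 278 values of these calls under alternatives 229 stayed past the threshold, 49 did not and 0 changed sign. CYP71B25 in WT also missed it with quantile normalization (adjusted p = 0.0523) and over replicates A and B (0.0948), and the dim filter dropped it. Another probe set per gene gave no value, because each member had 1. Where a value changed, the cause was not tested.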
